A study of Mus musculus with 8 samples.

Results

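The major histocompatibility complex (MHC) and antigen presentation genes of mouse liver were compared between wild type mice and Tm6sf2 E167K knock-in mice; Tm6sf2 acts in the secretion of liver lipids. The members are the array probe sets whose gene symbol entry lists a symbol starting with H2-, or lists B2m, Tap1, Tap2, Tapbp, Cd74, Ciita, Nlrc5, Psmb8, Psmb9, Psmb10 or Erap1. Each symbol entry was represented by its probe set of highest average across the 8 arrays. This gave 52 entries of 23627 in the whole series: 27 for class I heavy chains, 12 for class II chains, 10 for the light chain, peptide supply and control of class I, 2 for class II accessory genes (Cd74 and Ciita), and H2-Ke6, which bears an H2 symbol and encodes a metabolic enzyme. Some entries list several near-identical copies, and for those the copy that was measured is uncertain.

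Liver RNA samples of male C57BL/6J mice, 4 wild type and 4 knock-in samples, were measured on Affymetrix whole-transcript arrays, 1 array per sample. The wild type animals were littermates, the knock-in animals carried TM6SF2 E167K, and all 8 samples share sex, strain label and tissue; age and the copy number of the knock-in allele are not stated in the labels used here. The labels disagree on diet, naming high-fat feeding over 20 weeks in one place and, in another, 14 weeks on chow or on a fat-free diet high in sucrose, so no value here is tied to a diet. The labels do not say whether every array stands for its own animal; the p-values therefore reflect only how much these samples vary, which may be technical.

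MHC class I molecules sit on nearly all nucleated cells and show peptides from the cell's own proteins to CD8 T cells. Their heavy chain pairs with the light chain B2m, and the peptides are cut by the immunoproteasome (Psmb8, Psmb9, Psmb10), pumped into the endoplasmic reticulum by Tap1 and Tap2, trimmed by Erap1 and loaded with the help of Tapbp. Class II molecules show peptides from engulfed material to CD4 T cells and are made mainly by dendritic cells, B cells and macrophages, in the liver including Kupffer cells. Their chains are escorted by the invariant chain Cd74, and H2-DM and H2-DO edit the peptide. Nlrc5 is the transactivator of class I genes and Ciita that of class II genes, and both act on a shared promoter module that includes the Y box. Beside the classical heavy chains H2-K and H2-D, the mouse carries many non-classical class I genes in the Q, T and M regions, among them H2-Q10, a secreted class I protein made by hepatocytes.

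Promoters of some class I and class II members are shown here; those of H2-Q1 and H2-Ab1 are not shown. They were chosen because class I and class II genes share the Y box and H2-Q10, one of the members with the smallest p, has no match to that element in its window. The windows are RefSeq promoters of GRCm38.p6, from 250 bases before to 50 bases after a gene's start, and capitals mark the Y box core ATTGG, or CCAAT where it lies on the opposite strand. H2-K1 is the classical heavy chain, H2-Q10, H2-Q6 and H2-Q7 are Q region genes, and H2-Aa and H2-Eb1 are class II chains. Their windows lie at chr17:34000298-34000597 (minus strand) for H2-K1, chr17:35469839-35470138 (plus strand) for H2-Q10, chr17:35424600-35424899 (plus strand) for H2-Q6, chr17:35438905-35439204 (plus strand) for H2-Q7, chr17:34287774-34288073 (minus strand) for H2-Aa and chr17:34305617-34305916 (plus strand) for H2-Eb1.
H2-K1: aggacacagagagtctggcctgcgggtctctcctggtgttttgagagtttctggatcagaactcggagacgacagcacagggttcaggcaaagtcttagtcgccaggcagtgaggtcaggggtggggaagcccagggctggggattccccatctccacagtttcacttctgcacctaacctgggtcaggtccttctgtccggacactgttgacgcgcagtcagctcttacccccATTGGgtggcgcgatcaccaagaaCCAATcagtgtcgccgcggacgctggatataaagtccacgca
H2-Q10: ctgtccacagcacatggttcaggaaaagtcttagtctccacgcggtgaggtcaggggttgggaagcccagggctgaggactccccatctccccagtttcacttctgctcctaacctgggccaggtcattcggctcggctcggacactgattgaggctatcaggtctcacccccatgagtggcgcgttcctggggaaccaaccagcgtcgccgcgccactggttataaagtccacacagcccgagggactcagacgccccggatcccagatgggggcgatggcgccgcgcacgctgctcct
H2-Q6: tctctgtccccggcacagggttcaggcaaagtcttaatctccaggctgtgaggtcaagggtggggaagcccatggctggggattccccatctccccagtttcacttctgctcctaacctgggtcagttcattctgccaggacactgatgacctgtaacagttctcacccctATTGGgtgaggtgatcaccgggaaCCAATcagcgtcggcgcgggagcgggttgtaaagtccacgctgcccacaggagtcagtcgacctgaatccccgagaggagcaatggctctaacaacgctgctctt
H2-Q7: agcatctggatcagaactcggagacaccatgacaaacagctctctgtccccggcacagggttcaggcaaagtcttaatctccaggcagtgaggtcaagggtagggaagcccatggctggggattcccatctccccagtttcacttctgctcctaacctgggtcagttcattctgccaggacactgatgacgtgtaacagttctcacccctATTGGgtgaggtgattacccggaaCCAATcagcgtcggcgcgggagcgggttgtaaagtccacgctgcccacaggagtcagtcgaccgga
H2-Aa: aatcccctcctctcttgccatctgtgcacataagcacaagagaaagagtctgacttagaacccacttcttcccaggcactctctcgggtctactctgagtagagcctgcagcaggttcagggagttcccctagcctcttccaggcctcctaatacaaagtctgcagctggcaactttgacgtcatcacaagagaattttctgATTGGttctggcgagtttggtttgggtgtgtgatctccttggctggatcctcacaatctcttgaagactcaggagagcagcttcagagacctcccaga
H2-Eb1: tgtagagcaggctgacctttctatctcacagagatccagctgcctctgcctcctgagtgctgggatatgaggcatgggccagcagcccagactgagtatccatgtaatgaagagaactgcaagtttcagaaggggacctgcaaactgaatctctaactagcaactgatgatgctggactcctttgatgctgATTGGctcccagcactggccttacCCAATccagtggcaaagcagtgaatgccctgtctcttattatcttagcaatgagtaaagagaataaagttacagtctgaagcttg

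Of 54 member symbols looked up, 38 had at least 1 RefSeq window. The letters searched, on both strands, were ATTGG for the Y box, GAAA and GAAA parted by any 2 bases for the interferon-stimulated response element, and TTCNNNGAA for the gamma-activated site. The windows printed hold no match to the response element or the gamma-activated site. The Y box core lay in the windows of 10 of the 12 class I genes with a tested entry, of all 8 such class II genes and of 4 of the 7 such genes of the presentation machinery, against 37.4% of 32851 promoter windows of all genes. A gene was counted when any of its windows held the letters, while the background is per window; of the windows of H2-DMa, 1 held the core and 1 did not. H2-Q10 and H2-M5 were the class I genes with a tested entry and no match. The windows of Psmb9 and Tap1 overlap on opposite strands, and their match is the same site, counted for both genes. The response element was found in H2-T22, H2-T23, B2m and Erap1 (3.44% of all windows), and the gamma-activated site in H2-M3, H2-DMb2, Psmb8 and the dim member H2-M11 (8.3% of all windows). The promoters of H2-Q6 and H2-Q7 were identical at 254 of 260 aligned bases (97.7%), those of H2-Q6 and H2-Q10 at 237 of 293 (80.9%), and those of H2-K1 and H2-Q10 at 199 of 231 (86.1%). A match is a description of letters and not a measured binding site.

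Across the 8 arrays, values ran from 0.32 to 13.66 on the log2 scale, array medians from 3.73 to 3.80, and any pair of arrays correlated at 0.973 to 0.980. An entry was tested when at least 4 of the 8 arrays lay above a dim limit, the 40th percentile of each array (3.46 to 3.50). This kept 14327 entries, 12 of which passed an adjusted p of 0.05 (0.0838%). Of the 52 members 38 were tested and 14 were set aside as dim, with values of 1.31 to 4.02.

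Of the 38 tested members, 0 passed the limma threshold of adjusted p under 0.05, and the lowest adjusted p was 0.259. At an unadjusted p under 0.05 there were 4 members (10.5%), against 11.5% of all tested entries, so the share of the members lay near the background. They were H2-Q1, H2-Q10 and the entry of H2-Q6 and H2-Q8, all lower in the knock-in (5.34% of all tested entries were lower at this p), and H2-Ke6, which was higher (6.13%). The count fell to 2 when wild type replicate 3 was left out (5.26%, against 10.4% of all tested entries in that fit). Without knock-in replicate 4 it was also 2 (5.26%, against 11.6%). It rose to 5 without wild type replicate 2 (13.2%, against 10.6%) and to 6 without knock-in replicate 1 (15.8%, against 10.7%). Each change is the knock-in mean less the wild type mean in log2 units, followed by its standard error (SE) from the fit, and group values as mean ± SD with n = 4.

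**Figure D1:**
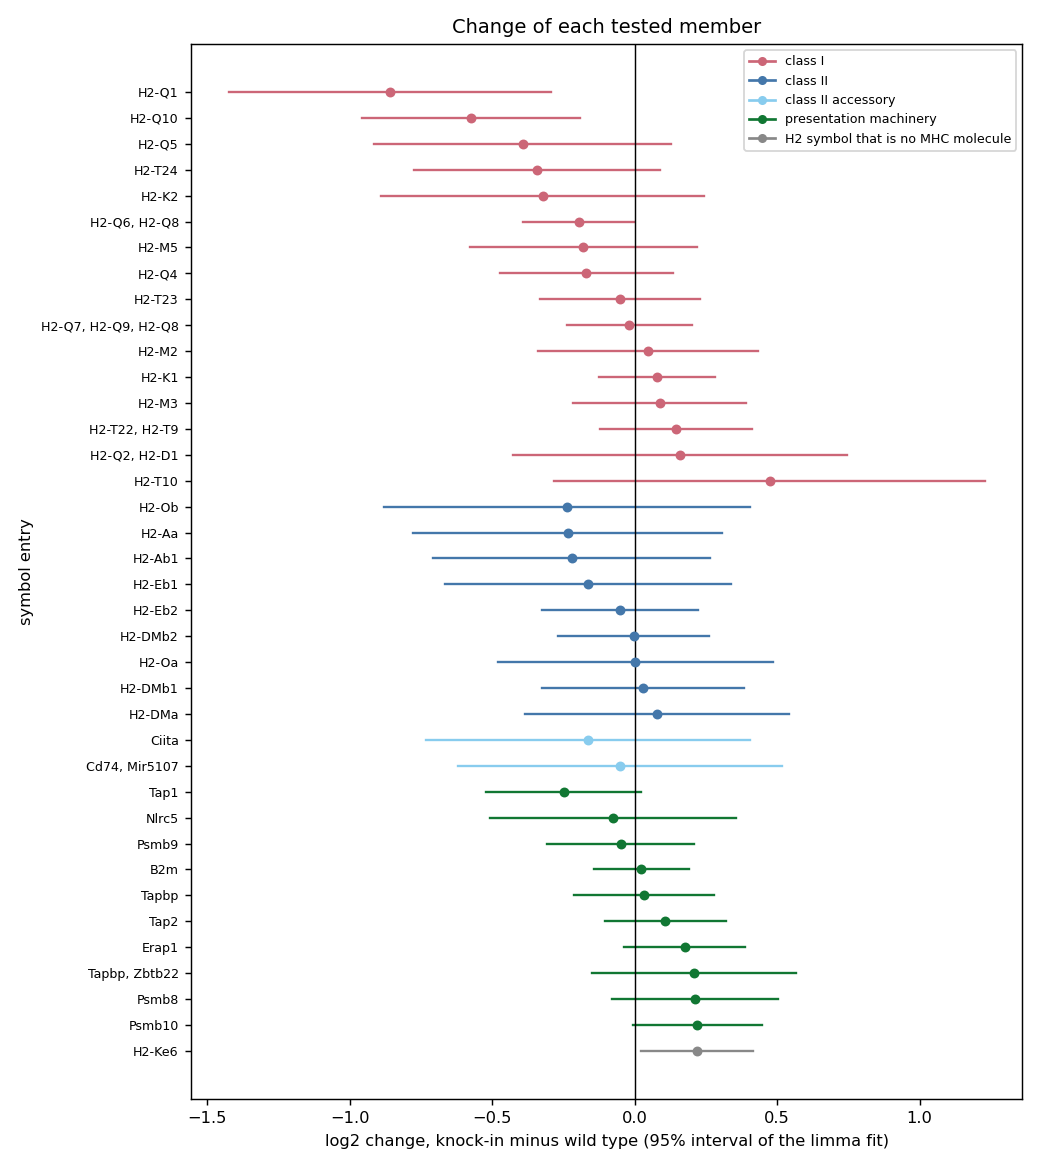
Log2 change, knock-in minus wild type, of each of the 38 tested members (points) with its 95% interval from the limma fit (lines), coloured by class. The lowest point is H2-Q1 at -0.86 and the highest is H2-T10 at 0.47, and the intervals of all members but H2-Q1, H2-Q10, H2-Q6 with H2-Q8, and H2-Ke6 include 0.

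The classical class I heavy chain H2-K1 was alike in both groups. Its log2 values were 11.28, 11.22, 11.46 and 11.46 in wild type and 11.34, 11.51, 11.46 and 11.42 in knock-in arrays. The groups overlapped, with a change of 0.08 (SE 0.09, 95% interval -0.13 to 0.28, limma adjusted p = 0.806). The other classical chain, H2-D1, shares its only entry with H2-Q2, and this probe set lay close to the dim limit, at 3.53, 3.55, 3.60 and 4.38 in wild type and 3.66, 3.71, 4.60 and 3.72 in knock-in arrays. One array in each group stood above the other 3, and the change was 0.16 (SE 0.26, adjusted p = 0.874; -0.07 without knock-in replicate 3 and 0.36 without wild type replicate 4), so the level of H2-D1 is not settled by this array. H2-K2, a transcribed pseudogene of the K region in RefSeq, was at -0.32 (SE 0.25, adjusted p = 0.683).

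The class I entries with the smallest p came from the Q region, which includes H2-Q10. H2-Q1 had log2 values of 7.71, 7.51, 7.67 and 7.71 in wild type and 6.23, 7.36, 7.22 and 6.36 in knock-in arrays. All 4 knock-in arrays lay below the wild type arrays, and knock-in replicates 1 and 4 lay lowest. The means were 7.65 ± 0.10 and 6.79 ± 0.58, a change of -0.86 (SE 0.25, 95% interval -1.42 to -0.29, unadjusted p = 0.00738, limma adjusted p = 0.259), or 1.81-fold lower on the array's scale.

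H2-Q10, the secreted class I protein of hepatocytes, had values of 10.11, 9.91, 9.97 and 10.71 in wild type and 9.54, 9.52, 9.64 and 9.70 in knock-in arrays. The groups did not overlap, and wild type replicate 4 lay above the rest of its group. The change was -0.57 (SE 0.17, 95% interval -0.96 to -0.19, unadjusted p = 0.00799, adjusted p = 0.263) and -0.39 without wild type replicate 4. A further probe set of H2-Q10, dimmer and not used for the member, gave 7.48, 7.12, 7.74 and 7.57 in wild type and 7.40, 7.56, 7.50 and 7.51 in knock-in arrays. These groups overlapped, and the change was 0.02 (SE 0.13, adjusted p = 0.981 in a fit over all probe sets), so the difference was seen by only 1 of the probe sets of the gene.

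The entry of H2-Q6 and H2-Q8 had values of 8.80, 8.65, 8.90 and 8.63 in wild type and 8.56, 8.54, 8.56 and 8.53 in knock-in arrays. The groups did not overlap and lay close together, with a change of -0.20 (SE 0.09, unadjusted p = 0.0496, adjusted p = 0.434). Its near copy, the entry of H2-Q7, H2-Q9 and H2-Q8, was at -0.02 (SE 0.10, adjusted p = 0.967), and its wild type range of 10.80 to 11.11 enclosed the knock-in range of 10.88 to 11.05. The pseudogene H2-Q5 was at -0.39 (SE 0.23) and H2-Q4 at -0.17 (SE 0.13), with adjusted p of 0.567 and 0.691. A dimmer probe set of each, not used for the members, was at 0.14 (SE 0.22) and 0.03 (SE 0.27). The dimmer probe set of the H2-Q7, H2-Q9 and H2-Q8 entry was at -0.14 (SE 0.19).

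Of the 7 tested entries that list a Q gene, 6 were below 0, against 48.7% of all tested entries, and the median change was -0.20. The unused probe sets of H2-Q10, H2-Q5 and H2-Q4 lay above 0, so the direction of these entries rests on the probe set kept. In 3 of the 7 the groups did not overlap, all lower, against 3.24% of all tested entries that did not overlap and were lower. The Q genes were set apart after their values had been seen and near-identical copies can share signal, so these counts describe them and carry no test.

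**Figure D2:**
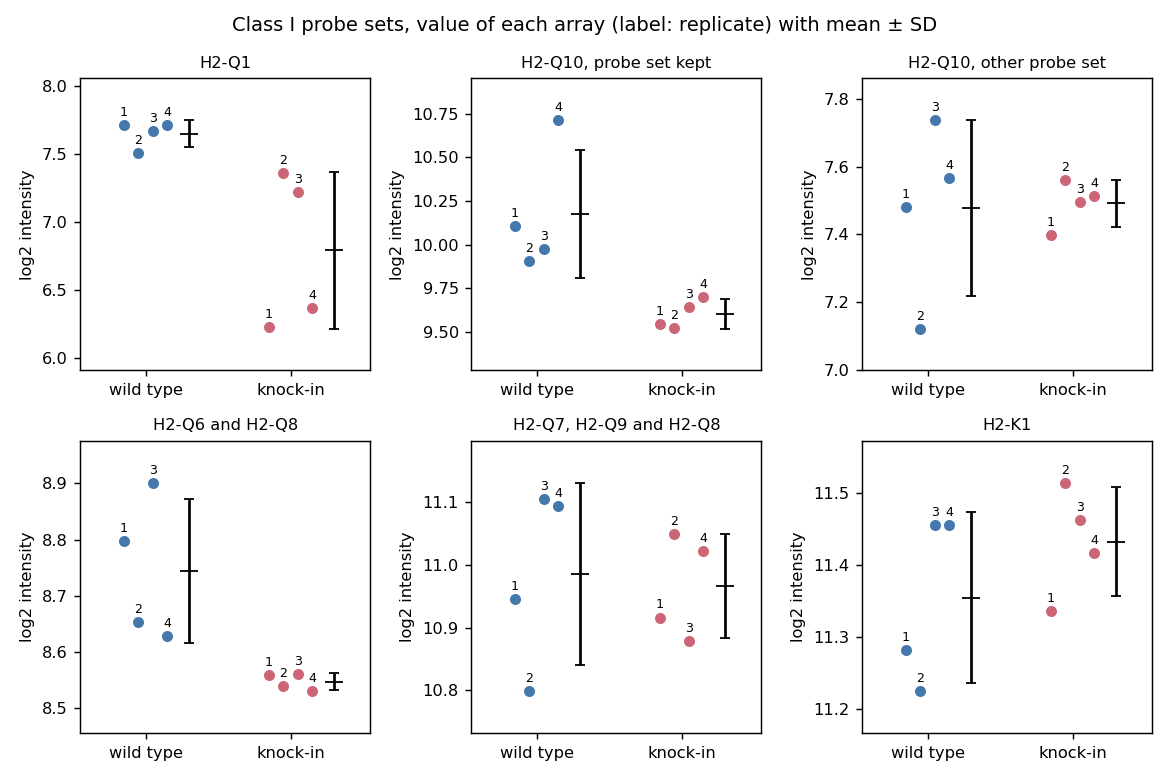
Log2 value of each array (points, labelled by replicate number) in wild type and knock-in liver for 6 class I probe sets, with mean ± SD of 4 arrays beside them; each panel has its own axis. The knock-in arrays of H2-Q1, of the H2-Q10 probe set kept and of H2-Q6 and H2-Q8 lie below all wild type arrays, while the other H2-Q10 probe set, H2-Q7 with its copies, and H2-K1 overlap.

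The T and M region genes showed no shared direction. H2-T24 was at -0.34 (SE 0.19), the pseudogene H2-T10 at 0.47 (SE 0.33) and the entry of H2-T22 and H2-T9, ligands of gamma delta T cells, at 0.14 (SE 0.12). H2-T23, the Qa-1 molecule that is read by the NK cell receptor NKG2A, was at -0.05 (SE 0.12), and its wild type range of 8.39 to 8.83 enclosed the knock-in range of 8.42 to 8.80. H2-M3, which shows formylated peptides, was at 0.09 (SE 0.13), H2-M2 at 0.05 (SE 0.17) and H2-M5 at -0.18 (SE 0.18), and the lowest adjusted p among these T and M entries was 0.538. The H2-M10 genes, H2-M1, H2-M9, H2-M11, H2-Bl and the entry of H2-T3 and H2-T18 were among the 14 dim members.

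The machinery that feeds class I molecules was spread around 0. B2m, the light chain, had values of 13.27, 13.21, 13.25 and 13.24 in wild type and 13.22, 13.31, 13.22 and 13.32 in knock-in arrays. The groups overlapped, with a change of 0.02 (SE 0.07, adjusted p = 0.939).

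Tap1, a subunit of the peptide pump, had values of 7.47, 7.74, 7.95 and 7.94 in wild type and 7.44, 7.48, 7.56 and 7.63 in knock-in arrays. Wild type replicate 1 lay among the knock-in arrays and the other 3 above them, and the change was -0.25 (SE 0.12, unadjusted p = 0.0679, adjusted p = 0.470). Its partner Tap2 was on the other side, at 0.11 (SE 0.09, adjusted p = 0.722), with values of 5.84, 5.68, 5.66 and 5.89 in wild type and 5.75, 5.87, 6.01 and 5.87 in knock-in arrays.

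The immunoproteasome subunits replace the standard catalytic subunits of the proteasome. Psmb10 had values of 7.61, 7.60, 7.74 and 7.67 in wild type and 7.63, 7.93, 7.97 and 7.97 in knock-in arrays. Of the knock-in arrays 3 lay above the wild type range and replicate 1 within it, with a change of 0.22 (SE 0.10, unadjusted p = 0.0563, adjusted p = 0.446). Psmb8 showed a like layout, with 7.63, 7.58, 7.76 and 7.83 in wild type and 7.58, 7.97, 7.95 and 8.15 in knock-in arrays, a change of 0.21 (SE 0.13, adjusted p = 0.584). Leaving out single arrays moved Psmb8 between 0.13 (without knock-in replicate 4, adjusted p = 0.751) and 0.32 (without knock-in replicate 1, adjusted p = 0.369), and Psmb10 between 0.19 and 0.30 for the same arrays (adjusted p of 0.570 and 0.298). Psmb9 did not share it: at 6.34, 6.23, 6.43 and 6.47 in wild type and 6.08, 6.55, 6.30 and 6.36 in knock-in arrays it overlapped throughout, with a change of -0.05 (SE 0.11, adjusted p = 0.919; -0.12 without knock-in replicate 2 and 0.03 without knock-in replicate 1).

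Erap1, the aminopeptidase that trims peptides for class I, had values of 9.40, 9.41, 9.09 and 9.30 in wild type and 9.43, 9.47, 9.50 and 9.50 in knock-in arrays. The knock-in arrays lay just above all wild type arrays (4.01% of all tested entries did not overlap and were higher), and the change was 0.18 (SE 0.09, unadjusted p = 0.0935, adjusted p = 0.523). Wild type replicate 3 was the lowest array, and without it the change was 0.10 (unadjusted p = 0.232). Including Erap1, the groups did not overlap in 4 of the 38 members (10.5%), against 7.25% of all tested entries.

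Tapbp, the tapasin that bridges the peptide pump and the heavy chain, had values of 7.86, 7.76, 8.05 and 8.14 in wild type and 7.82, 8.06, 8.05 and 8.02 in knock-in arrays, a change of 0.03 (SE 0.11, adjusted p = 0.946). A separate entry that lists Tapbp with its neighbour Zbtb22 was at 0.21 (SE 0.16, adjusted p = 0.676). Nlrc5, the class I transactivator, had values of 5.84, 6.48, 6.43 and 6.33 in wild type and 6.36, 6.26, 5.72 and 6.42 in knock-in arrays, with 1 low array in each group. Its change was -0.08 (SE 0.19, adjusted p = 0.927; -0.22 without wild type replicate 1 and 0.08 without knock-in replicate 3).

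**Figure D3:**
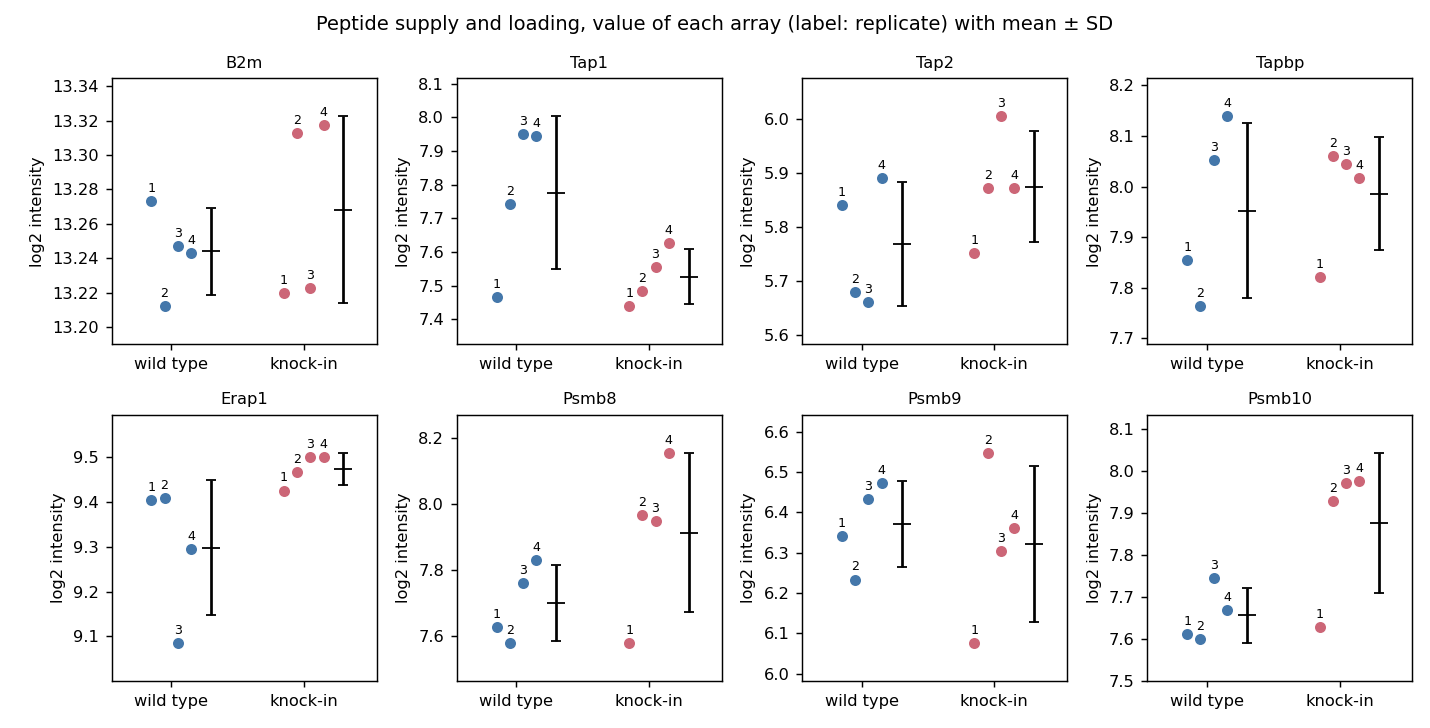
Log2 value of each array (points, labelled by replicate number) for B2m, the peptide pump Tap1 and Tap2, Tapbp, Erap1 and the immunoproteasome subunits, with mean ± SD of 4 arrays beside them; each panel has its own axis. Erap1 is the panel whose groups do not overlap, and for Psmb8 and Psmb10 knock-in replicate 1 lies below the other 3 knock-in arrays.

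H2-Ke6, the oxidoreductase also known as Hsd17b8, lies among the MHC genes on chromosome 17. Its values were 8.56, 8.59, 8.60 and 8.75 in wild type and 8.70, 8.90, 8.87 and 8.90 in knock-in arrays. Knock-in replicate 1 and wild type replicate 4 crossed, and the change was 0.22 (SE 0.09, unadjusted p = 0.0330, adjusted p = 0.376).

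Among the class II chains 0 of 9 tested entries passed the limma threshold and 0 had an unadjusted p under 0.05, against 11.5% of all tested entries. H2-Aa, the alpha chain of the A molecule, had values of 7.33, 7.79, 8.14 and 8.27 in wild type and 7.09, 7.84, 7.86 and 7.80 in knock-in arrays. Replicate 1 was the lowest array in both groups, and the change was -0.23 (SE 0.24, 95% interval -0.78 to 0.31, adjusted p = 0.769; -0.42 without wild type replicate 1 and -0.05 without knock-in replicate 1). In bulk liver, fewer cells of a type and less RNA per cell cannot be told apart.

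H2-Ab1, the beta chain that pairs with H2-Aa, had values of 8.48, 8.85, 9.30 and 9.07 in wild type and 8.20, 9.02, 8.78 and 8.82 in knock-in arrays. Again replicate 1 was lowest in both groups, with a change of -0.22 (SE 0.21, adjusted p = 0.754; -0.37 and -0.05 with the same arrays left out). H2-Eb1, the beta chain of the E molecule, had 7.37, 7.68, 8.22 and 8.12 in wild type and 7.20, 7.87, 7.91 and 7.76 in knock-in arrays, a change of -0.16 (SE 0.22, adjusted p = 0.846; -0.32 and -0.0020 with those arrays left out). H2-Ea, the alpha chain of the E molecule, is a pseudogene in C57BL/6 mice and was dim here, at 1.99 to 2.78 over the 8 arrays.

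The invariant chain is measured by an entry that lists Cd74 with Mir5107, a microRNA within it. The values were 8.99, 9.11, 9.95 and 9.87 in wild type and 8.96, 9.59, 9.65 and 9.51 in knock-in arrays. Its low arrays were wild type replicates 1 and 2 and knock-in replicate 1, and the change was -0.05 (SE 0.25, adjusted p = 0.966; -0.21 without wild type replicate 1, 0.10 without knock-in replicate 1 or wild type replicate 3, and 0.08 with wild type replicate 4 left out). Ciita, the transactivator, had values of 5.21, 4.56, 5.20 and 4.89 in wild type and 5.33, 4.21, 4.57 and 5.08 in knock-in arrays. It was not low in replicate 1 of either group, and its change was -0.16 (SE 0.25, adjusted p = 0.864; -0.34 without knock-in replicate 1 and 0.03 without knock-in replicate 2).

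H2-Aa, H2-Ab1, H2-Eb1 and the Cd74 entry varied together over the 8 arrays. In the knock-in group their shared low values lay in replicate 1. Knock-in replicates 2 to 4 were close together for H2-Aa, at 7.84, 7.86 and 7.80, with H2-Ab1 at 9.02, 8.78 and 8.82. Pearson's r over the 8 arrays was 0.944 for H2-Aa and H2-Ab1, 0.975 for H2-Aa and H2-Eb1, 0.902 for H2-Aa and Cd74, 0.958 for H2-Ab1 and H2-Eb1, 0.870 for H2-Ab1 and Cd74 and 0.958 for H2-Eb1 and Cd74. Exact permutation p ranged from 2.48e-05 to 0.00303, or 0.000198 to 0.00403 adjusted over the 8 pairs computed. Spearman's rho was 0.810, 0.976, 0.976, 0.833, 0.833 and 1 in the same order, with exact permutation p of 4.96e-05 to 0.0218, or 0.000397 to 0.0249 adjusted. Without the 2 arrays farthest from the median of the first gene of each pair, r was 0.753 to 0.934 over 6 arrays. Taken within groups, as deviations from each group's mean with both groups pooled, r was 0.903 to 0.976. It was not computed for each genotype alone. The pairs were chosen after the values had been seen.

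The within-group SD of these 4 entries had a median of 0.38, against 0.19 over all tested entries. The mean of 11 Kupffer cell markers was 8.07, 8.19, 8.33 and 8.85 in wild type and 8.01, 8.43, 8.46 and 8.61 in knock-in arrays. It was lowest in replicate 1 of both groups, as were H2-Aa, H2-Ab1 and H2-Eb1. The mean of 9 monocyte and macrophage markers was also lowest there, at 5.71 in wild type replicate 1 and 5.80 in knock-in replicate 1. Dendritic cell and B and plasma cell means were lowest in wild type replicate 1, at 4.36 and 4.57, but not in knock-in replicate 1. There the dendritic cell mean was 4.50, in a knock-in range of 4.40 to 4.52. The B and plasma cell mean was 5.07 there, the highest of the knock-in arrays. In the other arrays the Kupffer cell mean and the class II entries differed in order. The mean deviation of the 4 entries was highest in wild type replicate 3, at 0.45, and the Kupffer cell mean in wild type replicate 4. Over knock-in replicates 2 to 4 that deviation fell, at 0.13, 0.10 and 0.02, while the Kupffer cell mean rose. All 11 Kupffer cell markers passed the filter on dim values. Of them 1 (9.09%) had an unadjusted p under 0.05, against 11.5% of all tested entries. That was Cd163, at 0.45 (SE 0.15, limma adjusted p = 0.305). The part of Kupffer cells, monocytes and other macrophages in the spread of the class II genes was not tested. H2-K1, present on most cells, correlated with Cd74 at r = 0.822 (exact permutation p = 0.0174, 0.0198 adjusted; rho = 0.667, exact permutation p = 0.0831, 0.0831 adjusted; r = 0.756 without the 2 arrays farthest from the median of H2-K1), and H2-Q10 with H2-Q1 at r = 0.614 (exact permutation p = 0.103, 0.103 adjusted; rho = 0.826, exact permutation p = 0.0172, 0.0229 adjusted; r = 0.571 without the 2 arrays farthest from the median of H2-Q10). Within groups r was 0.935 for H2-K1 and Cd74 and 0.04 for H2-Q10 and H2-Q1, so the latter relation rests on the difference between the groups. Both of these Q entries had been seen to be lower in the knock-in, and the permutation disregards genotype. Its p for H2-Q10 and H2-Q1 therefore does not test a relation beyond that difference.

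**Figure D4:**
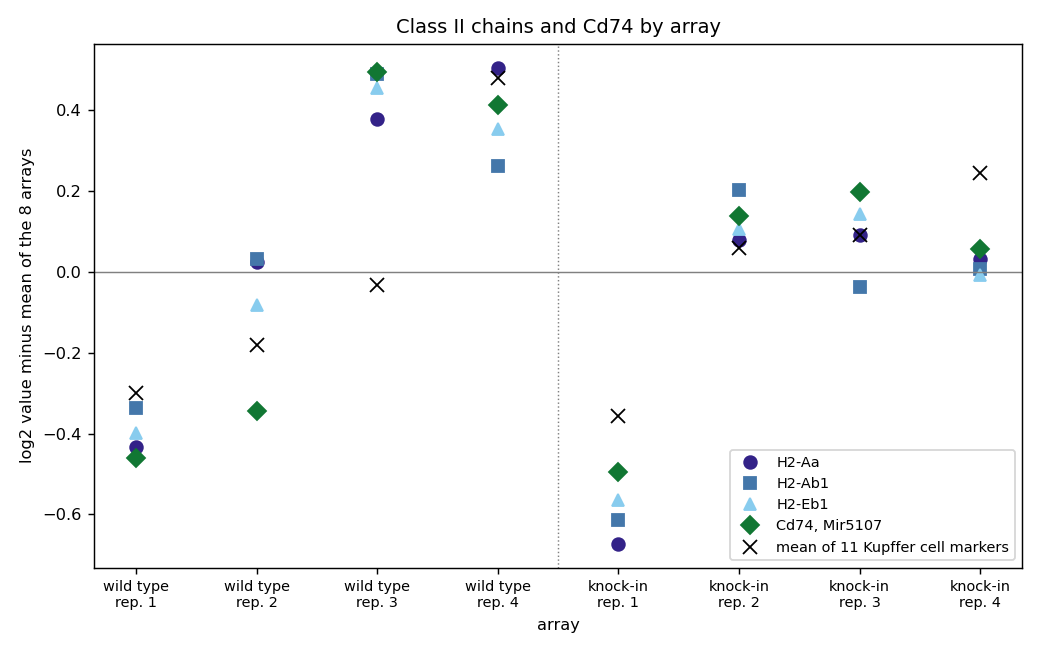
Log2 value of each array minus the mean of the 8 arrays for H2-Aa, H2-Ab1, H2-Eb1 and the Cd74 entry, with the mean of 11 Kupffer cell markers as crosses; the dotted line parts wild type from knock-in arrays. The genes vary together over the 8 arrays, and replicate 1 of each group lies lowest for the 3 class II chains.

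The peptide editors of class II lay nearer the dim limit. H2-DMa had values of 4.58, 4.69, 5.47 and 5.23 in wild type and 4.79, 5.28, 5.11 and 5.09 in knock-in arrays, with a change of 0.08 (SE 0.20, adjusted p = 0.930; -0.06 with wild type replicate 1 left out and 0.24 with wild type replicate 3 left out). H2-DMb1 had 3.50, 3.39, 3.64 and 3.97 in wild type and 3.83, 3.44, 3.48 and 3.88 in knock-in arrays, and H2-DMb2 had 5.13, 4.68, 4.93 and 4.98 in wild type and 4.87, 5.04, 5.03 and 4.76 in knock-in arrays. Both overlapped throughout, at 0.03 (SE 0.16) and -0.0033 (SE 0.12), and their signs turned with the processing. H2-Oa, a subunit of the editor H2-DO, had 4.11, 4.06, 4.65 and 4.35 in wild type and 3.82, 4.82, 4.35 and 4.19 in knock-in arrays, a change of 0.0023 (SE 0.21) whose sign also turned. Its partner H2-Ob had 5.11, 4.05, 4.17 and 5.27 in wild type and 4.75, 4.35, 4.35 and 4.19 in knock-in arrays, with high values in wild type replicates 1 and 4 and a change of -0.24 (SE 0.28, adjusted p = 0.812; -0.44 with wild type replicate 2 left out and -0.03 with wild type replicate 4 left out). H2-Eb2 was at -0.05 (SE 0.12, adjusted p = 0.922). The entry of H2-Oa with BC051537 and H2-Pb were dim.

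Set side by side, class I and class II did not part in the knock-in. The median change was -0.11 over 16 class I entries, -0.05 over 9 class II entries and 0.07 over 10 entries of the machinery, against 0.0051 over all 14327 tested entries. Of all tested entries 48.7% were below 0; of class I entries 10 were, of class II entries 6, of which H2-DMb2 turned its sign after a further quantile normalization, and of machinery entries 3. As the mean deviation of each array, class I minus class II spanned -0.16 to 0.16 in the wild type group and -0.14 to 0.06 in the knock-in group, which overlapped. Its means were 0.02 ± 0.15 and -0.02 ± 0.08 (SD, n = 4 each), a difference smaller than either SD. The medians depended on which dim entries were kept: with no filter they were -0.02 for class I and -0.03 for class II, and with the limit at the 60th percentile -0.18 and -0.22, so that class I less class II turned from -0.06 to 0.04. These class summaries describe the members and carry no test.

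Genes that work with the members but do not belong to them were read from lists, whose counts stand against 5.34% lower and 6.13% higher at unadjusted p under 0.05 among all tested entries. The lists were chosen with earlier results of these data known, so their shares describe the lists and carry no test. Among 20 class I peptide loading and trimming partners tested, 0 passed over all entries, 1 was lower and 1 higher at unadjusted p under 0.05, and the median was -0.01. The endoplasmic reticulum chaperone Hspa5 was at -0.23 (SE 0.10), the entry of Erp29 and Tmem116 at 0.31 (SE 0.13), calreticulin (Calr) at -0.16 (SE 0.10) and the proteasome activator subunit Psme2 at 0.47 (SE 0.31). Of 13 class II processing partners 0 passed and 3 (23.1%) were higher at unadjusted p under 0.05, against 6.13% of all tested entries, with a median of 0.06. The lysosomal membrane proteins Lamp1 and Cd63 were at 0.22 (SE 0.07) and 0.35 (SE 0.14), the cathepsin Ctsz at 0.26 (SE 0.10) and Mpeg1, a pore-forming protein of macrophages, at 0.30 (SE 0.16).

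Of 21 genes of transcriptional control and interferon gamma signalling 0 passed, and 3 (14.3%) were at unadjusted p under 0.05, all lower, against 5.34% of all tested entries; the median was -0.05. Irf9 and Stat2, which form the factor that answers type I interferon, were at -0.59 (SE 0.11, adjusted p = 0.108) and -0.47 (SE 0.13, adjusted p = 0.247). Socs1, an inhibitor of interferon signalling, was at -0.49 (SE 0.15) and Rfxank, a subunit of the complex that binds the X box beside the Y box, at -0.27 (SE 0.13). Of 17 interferon gamma induced GTPases 0 passed and 5 (29.4%) were lower at unadjusted p under 0.05, against the same 5.34%, with a median of -0.35. As this list too was chosen with earlier results known, the share is a description and no test. Igtp was at -0.55 (SE 0.14), Irgm2 at -0.51 (SE 0.14), Irgm1 at -0.39 (SE 0.11) and the entry of Olfr56 and Ifi47 at -0.49 (SE 0.15), with adjusted p of 0.194 to 0.280. In the whole list 12 of the 17 were lower and 5 higher. The higher ones were Gbp4 at 0.29 (SE 0.45), Gbp2b at 0.20 (SE 0.38), Gbp8 at 0.10 (SE 0.49), the entry of Gbp2 and Gbp2b at 0.09 (SE 0.21) and Gbp5 at 0.07 (SE 0.20).

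Among 10 tested costimulation genes 0 passed, with a median of -0.01, and 1 was at unadjusted p under 0.05. That was Cd274, the inhibitory ligand PD-L1, at -0.72 (SE 0.27, adjusted p = 0.351), while Lgals9 was at -0.12 (SE 0.08), Icam1 at -0.23 (SE 0.15) and Cd24a at 0.26 (SE 0.24). Of 9 tested MHC-like molecules outside the H2 symbols 0 passed, 1 was lower and 1 higher at unadjusted p under 0.05, and the median was -0.05. The entry of Raet1e and Raet1d, MHC-like ligands of the NK cell receptor NKG2D, had values of 8.42, 8.24, 7.84 and 8.36 in wild type and 5.16, 5.02, 5.24 and 6.86 in knock-in arrays. The groups lay far apart, with knock-in replicate 4 nearest to wild type, and the change of -2.65 (SE 0.38) stopped just short of the threshold (limma adjusted p = 0.0510). Procr was at 0.37 (SE 0.12, adjusted p = 0.309), Mill2 at -0.32 (SE 0.23) and Ulbp1 at -0.18 (SE 0.16).

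The list means of hepatocyte, dendritic cell, B and plasma cell, monocyte and macrophage, and T and NK cell markers overlapped between the groups. The mean of the Kupffer cell markers, given above, overlapped as well. The 11 hepatocyte markers were bright on every array, averaging 12.58 to 12.63 (wild type) and 12.57 to 12.63 (knock-in). Dendritic cell markers averaged 4.36 to 4.62 and 4.40 to 4.52, with a median change of 0.09 over 9 tested. Of these 2 (22.2%) were at unadjusted p under 0.05, against 11.5% of all tested entries. They were Batf3 and Flt3, in opposite directions at -0.41 (SE 0.15) and 0.43 (SE 0.16), with limma adjusted p of 0.351 and 0.354. Siglech, Clec10a and Ccl22 exceeded the dim limit on fewer than 4 arrays and were not tested; Siglech was at 3.29 to 3.89 in the wild type group and 2.70 to 3.26 in the knock-in group. B and plasma cell markers averaged 4.57 to 5.01 and 4.69 to 5.07, with Cr2 and Fcer2a of 9 not tested for the same reason and a median of -0.06 over 7, while Jchain, the joining chain of plasma cells, was at 1.04 (SE 0.25, adjusted p = 0.177). Monocyte and macrophage markers averaged 5.71 to 6.23 and 5.80 to 6.32, with a median of 0.13 over 9, and T and NK cell markers averaged 4.17 to 4.40 and 4.05 to 4.39, with a median of -0.02 over 10. The means of sinusoidal endothelium, stellate cell, cholangiocyte and neutrophil markers overlapped between the groups too. Of 9 sinusoidal endothelium markers tested 1 (11.1%) had an unadjusted p under 0.05, against 11.5% of all tested entries. That was Lyve1, at 0.73 (SE 0.23, limma adjusted p = 0.293), while the median was -0.02. The part of these cell types in the class I and class II values was not tested.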

How the data were processed

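The deposited table holds 1 log2 expression value per probe set and array for 41345 probe sets, which the authors had normalized; the submitters' processing notes name RMA and limma without versions. The genome build behind the array was not given in the sources used here. Quantile normalization, a step of RMA, makes array distributions nearly equal, which removes differences in overall level. Precision is limited by 4 arrays per group.

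Symbols came from the platform annotation, which gives 25335 probe sets a symbol entry. Per entry, with 1 or several symbols, the probe set of highest mean was kept. Of 58 gene identifiers of the members' entries, 56 matched RefSeq (GRCm38.p6). An entry was tested if at least 4 of 8 arrays exceeded the 40th percentile of the array's probe sets with exactly 1 symbol. The genotypes were compared with lmFit and eBayes of limma 3.58.1 under R 4.3.3, with no covariate and two-sided p-values adjusted by Benjamini-Hochberg over 14327 entries (threshold 0.05); the fit was tested on simulated data. Correlations had exact two-sided permutation tests over the arrays. Promoters were aligned with Biopython 1.88 with free end gaps, and identity counts aligned bases only.

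The named genes were the classical class I and the class II chains, Cd74, B2m, Tap1, Tap2, Tapbp, Erap1, the Psmb subunits, Ciita, Nlrc5, every other member with unadjusted p under 0.05, and up to 4 genes per partner list by smallest p. Members and lists were chosen with earlier results of these data known. Alternatives were other filters, normalizations, priors, weights, probe set rules, a replicate block and leaving out each array; other probe sets of an entry were examined after seeing the data.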

Additional observations from a re-analysis of the deposited data

Results flagged for a closer look

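Of 50 groups of 4 arrays examined among the named members, 5 held an array far from the other 3; chance alone flags about 1 in 20 groups. The shared entry of H2-Q2 and H2-D1 was high in wild type replicate 4, at 4.38 against 3.53 to 3.60, and in knock-in replicate 3, at 4.60 against 3.66 to 3.72, both close to the dim limit. The remaining 3 are all knock-in replicate 1: H2-Aa at 7.09 against 7.80 to 7.86, Psmb10 at 7.63 against 7.93 to 7.97, and H2-Ke6 at 8.70 against 8.87 to 8.90.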

How the results depend on the processing

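In each of the 17 alternatives 0 members passed an adjusted p of 0.05, and H2-Q1 had an unadjusted p under 0.05 in all 17. H2-Q10 had one in 16 of them and not with the mean of its probe sets; its other probe set was at 0.015. H2-Ke6 had one in 10 of 17, and the H2-Q6 and H2-Q8 entry in 5 of the 16 that tested it. The medians of class I, class II, their difference and the machinery moved by less than the spread between arrays in all 17, which is wide beside them: over all 17 class I ran from -0.18 to -0.02, class II from -0.22 to 0.01, their difference from -0.12 to 0.04 and the machinery from 0.03 to 0.12. Members at unadjusted p under 0.05 numbered 2 with the mean of probe sets per entry (5.26%, against 11.5% of all tested entries). On leaving out an array they numbered 2 to 6. There were 5 with a stricter filter (19.2%, against 14.2%) and 6 with a trended and robust prior (15.8%, against 12.2%). The count of all entries past the threshold, 12, was 6 with no filter, 40 with a stricter filter, 22 with median centring, 89 with a trended and robust prior, 32 with array weights, 32 with the mean of probe sets and 4 to 23 on leaving out an array. With the replicate number as a block the count was 4, and 0 members passed it. At unadjusted p under 0.05 H2-Q1 and H2-Q10 stayed, H2-Ke6 and the H2-Q6 and H2-Q8 entry dropped out and H2-T24 came in. The unadjusted limma p with the block and without it was 0.0899 and 0.352 for H2-Aa. It was 0.149 and 0.329 for H2-Ab1, and 0.235 and 0.480 for H2-Eb1. Same-numbered arrays correlated at -0.09 to 0.09 in their deviations over all tested entries. That range cannot show whether same-numbered arrays share a factor that acts on some genes, which was not tested.

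Signs turned in members near 0. H2-DMb1 was at -0.028 with array weights, H2-DMb2 at 0.019 after a further quantile normalization and H2-Oa at -0.0016 with median centring. On leaving out an array the shared H2-Q2 and H2-D1 entry ran from -0.066 to 0.36, H2-DMa from -0.057 to 0.24, H2-DMb1 from -0.051 to 0.14, H2-DMb2 from -0.087 to 0.063, H2-Oa from -0.17 to 0.16, Cd74 from -0.21 to 0.10, Tapbp from -0.029 to 0.10, Psmb9 from -0.12 to 0.033, Ciita from -0.34 to 0.031 and Nlrc5 from -0.22 to 0.081. The cause was not tested. Near the dim limit and the top of the scale, signal limits what a change can show.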
